A study of Mus musculus with 9 samples.

Results

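High-fat feeding at a normal protein content was described in liver by setting 2 pools of mice on the high fat-normal protein diet (HF-NP) against 2 pools on the low fat-normal protein diet (LF-NP), 1 pool of each after 1 week and 1 after 12 weeks. These 4 of the 9 pools of the series were taken by their diet and week labels. The HF-NP diet held 35% of its energy as fat, 15% as protein and, by difference, 50% as carbohydrate, and the LF-NP diet held 10% as fat, 15% as protein and 75% as carbohydrate, so that fat stood in for carbohydrate. All mice were male C57BL/6J and had first been on the LF-NP diet as a run-in. The pools of 1 week are labelled as 13 weeks old and those of 12 weeks as 22 weeks old, although the stated ages and diet lengths would make the later pools older than that. Each pool held liver RNA of 5 mice and was read on 1 Affymetrix Mouse Gene 1.0 ST array, so the spread between single mice is not in these values. The remaining pools were the reference group at week 0 (12 weeks old, 10% fat and 15% protein), and the LF-HP and HF-HP groups, whose diets held 50% protein with 10% or 35% fat, after 1 and 12 weeks. The livers were taken after a measured meal, so the values describe fed animals.

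A liver that receives more fat and less carbohydrate takes up, stores, burns and exports fatty acids. The nuclear receptor PPAR alpha is activated by fatty acids and drives genes of their oxidation in mitochondria, peroxisomes and microsomes, while SREBP-1c and ChREBP drive fatty acid synthesis from sugar. SREBP-2 drives cholesterol synthesis when sterols in the endoplasmic reticulum are low, and the unfolded protein response adjusts the chaperones of the same organelle to the load of secreted protein.

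Expression is given as the authors' log2 RMA value, in which a difference of 1 is a 2-fold difference in signal. The values of different probe sets are not set against each other. Over 19938 genes, 1 probe set each, the 4 NP arrays had medians between 5.838 and 5.866 and correlated with each other between 0.9957 and 0.9972. HF-NP and LF-NP pools of the same week correlated at 0.9972 after 1 week and 0.9963 after 12 weeks. The hepatocyte markers averaged 13.32 and 13.24 in the HF-NP pools of 1 and 12 weeks, against 13.22 and 13.28 in the LF-NP pools. In what follows, 2 values of a diet are those of 1 and 12 weeks in that order.

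With 1 pool for each diet and week, no gene passed the test: 0 of 19938 genes (0%) had an adjusted p under 0.05 between HF-NP and LF-NP in limma with Benjamini-Hochberg adjustment, and the smallest adjusted p was 0.84. At an unadjusted p under 0.05, HF-NP was higher for 319 genes (1.6%) and lower for 448 (2.25%), together 3.85% of the genes, where 5% would have such a p if no gene differed. Genes are therefore described by the size of the difference and by whether it was repeated at both weeks. HF-NP was above LF-NP at both weeks for 3519 genes (17.6%) and below it for 5051 (25.3%). Both HF-NP pools lay above both LF-NP pools for 1788 genes (8.97%) and below both for 2828 (14.2%). A difference of 0.5 or more at both weeks, the size used here to call a repeated difference, was found for 25 genes with HF-NP higher (0.125%) and for 18 with HF-NP lower (0.0903%). In 24 of the 25 and in 18 of the 18, the HF-NP and LF-NP pools did not overlap across the weeks, with G0s2 as the exception. The same values chose these genes, so this lack of overlap follows largely from the choice and adds no support. Across all genes, which are not independent replicates, the differences at 1 and 12 weeks correlated at 0.049, and at 0.20 across the 9969 genes above the median level. An exact permutation test of a single gene with 2 pools against 2 cannot give a two-sided p below 0.333, or below 0.5 when the pools are paired by week.

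**Figure D1:**
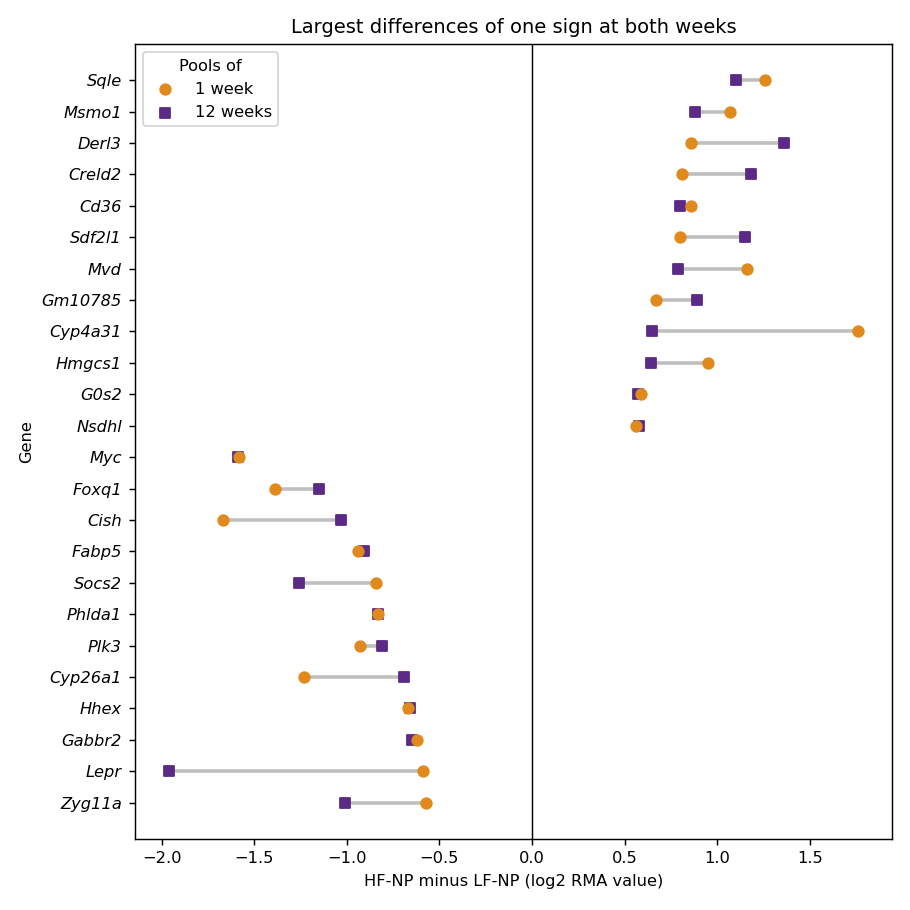
HF-NP minus LF-NP on the log2 scale (horizontal axis) at 1 week (circles) and 12 weeks (squares) for the 12 genes with the largest repeated positive and the 12 with the largest repeated negative difference among genes above the median level, 1 pool for each diet and week. Sqle stood at 1.26 and 1.1 and Myc at -1.58 and -1.59, while Lepr differed between the weeks with -0.59 and -1.96.

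Genes of cholesterol synthesis were higher in HF-NP livers, and more so after 1 week than after 12 weeks. Of the 20 genes measured from the list of cholesterol synthesis and SREBP-2 targets, 16 were higher at both weeks and 0 lower, 8 had an unadjusted p under 0.05 with HF-NP higher and 0 with HF-NP lower, and none passed the adjusted test. Both HF-NP pools lay above both LF-NP pools for 14 of the 20. Over all genes the share higher at both weeks was 17.6%, and 25.3% were lower. Of all genes 1.6% were higher at an unadjusted p under 0.05 in limma, and 8.97% had both HF-NP pools above. The median difference of the list was 0.46 after 1 week and 0.15 after 12 weeks, beside 0.00 and -0.01 over all genes. Sqle, the epoxidase that commits squalene to sterols, had 8.68 and 7.99 in HF-NP livers, against 7.42 and 6.89 in LF-NP livers. Both HF-NP values were above both LF-NP values, and the differences of 1.26 and 1.1 are 2.40-fold and 2.14-fold (mean 1.18, SE 0.22 by limma, unadjusted p = 0.00125, adjusted p = 0.972). Msmo1, a methyl sterol oxidase, had 9.71 and 9.36 in HF-NP livers, against 8.64 and 8.48 in LF-NP livers. Its mean difference of 0.98 (SE 0.12) had the smallest unadjusted p of all genes in limma, 9.79e-05, with an adjusted p of 0.84.

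The other steps differed in size. Hmgcs1, which makes HMG-CoA from acetyl units, had 9.45 and 9.21 in HF-NP livers, against 8.50 and 8.57 in LF-NP livers. Mvd, which makes the isoprene unit from mevalonate, had 7.53 and 7.51 in HF-NP livers, against 6.37 and 6.72 in LF-NP livers. For both genes the groups were apart at each week, by 0.95 and 0.64 for Hmgcs1 and by 1.16 and 0.79 for Mvd. Between them in the pathway, the mevalonate kinases Mvk and Pmvk had smaller differences, of 0.30 and 0.17 for Mvk and 0.24 and 0.01 for Pmvk. Idi1, the isomerase that follows, was higher by 0.49 and 0.64, and Cyp51, the demethylase of lanosterol, by 0.77 and 0.53. Nsdhl, a later sterol dehydrogenase, had 9.34 and 9.05 in HF-NP livers, against 8.78 and 8.47 in LF-NP livers. Fdft1, the squalene synthase, was higher by 0.72 and 0.25.

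A second set of members differed after 1 week and hardly after 12 weeks. Lss, the cyclase that forms lanosterol, was higher by 0.69 after 1 week and by 0.06 after 12 weeks. Hsd17b7, a sterol ketoreductase, was higher by 0.61 and 0.06. Dhcr7, the last reductase, had differences of 0.43 and -0.13, and Insig1, which retains the SREBP proteins in the endoplasmic reticulum, had 0.43 and 0.00. The transcript of SREBP-2 itself (Srebf2) had 8.78 and 8.39 in HF-NP livers, against 8.42 and 8.41 in LF-NP livers. Whether the fat difference of these genes itself differed between the weeks cannot be tested with 1 pool for each diet and week.

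At high protein the same genes were higher on fat mainly after 1 week. Over the 20 genes the median of HF-HP minus LF-HP was 0.46 after 1 week and 0.07 after 12 weeks, and 13 were higher at both weeks with 0 lower. Over all genes 25.8% were higher and 17.3% lower at both weeks at high protein. Sqle was the only member with 0.5 or more at both weeks at high protein (1.01 and 0.55). Msmo1 had 0.53 and 0.14 there and Mvd 0.56 and 0.08. The fat difference of 3 members was smaller at high than at normal protein at an unadjusted p under 0.05 (Msmo1, Mvd and Hmgcs1), with adjusted p in limma of 0.642, 0.689 and 0.706. Over all genes 2.23% had such a smaller difference.

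**Figure D2:**
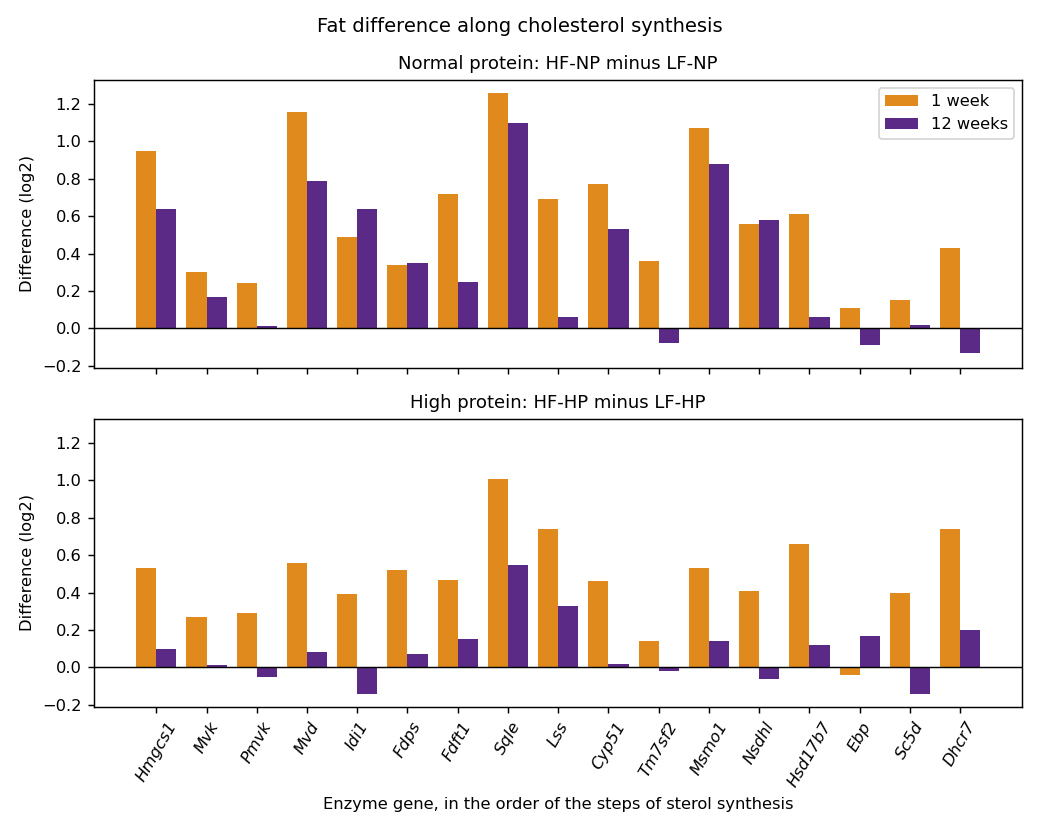
Difference between the high and the low fat pool (log2, vertical axis) for 17 enzyme genes of cholesterol synthesis in the order of their steps, after 1 week (orange) and 12 weeks (purple), at normal protein (upper panel, HF-NP minus LF-NP) and high protein (lower panel, HF-HP minus LF-HP), 1 pool for each diet and week. After 1 week all 17 bars at normal protein are above 0, from 0.11 for Ebp to 1.26 for Sqle, and the 12-week bars are led by Sqle, Msmo1 and Mvd.

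Promoter sequence was looked up for the members, since SREBP-2 reads a short element together with the CCAAT-binding factor. RefSeq windows of 300 bases (250 before to 50 after the start, build GRCm38.p6) were matched for 16 of the 20 genes. The motif CCAAT, searched on both strands, was present in 16 of these 16, and in 41.1% of all 27025 genes with a window. The sterol regulatory core TCACNCCAC, searched on both strands, was present in 1 of the 16, Hmgcs1, and in 1.44% of all genes. Its stretch is shown, 5′ to 3′, with the core in capitals. A match is a description of letters, and no binding was measured.
Hmgcs1, chr13:119690174-119690262, plus strand: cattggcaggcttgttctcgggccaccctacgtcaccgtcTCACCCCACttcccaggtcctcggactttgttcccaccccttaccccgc

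Chaperones and degradation factors of the endoplasmic reticulum were higher in HF-NP livers at both weeks, and the difference was larger after 12 weeks than after 1 week for most of those named. In the list of integrated and endoplasmic reticulum stress, 25 genes measured, 13 were higher at both weeks and 5 lower, and 10 were higher and 1 lower at an unadjusted p under 0.05, with no adjusted call. Over all genes 17.6% were higher and 25.3% lower at both weeks, and 1.6% were higher and 2.25% lower at that unadjusted p. The list's median difference was 0.11 after 1 week and 0.20 after 12 weeks. Creld2, a secreted factor induced by misfolded protein, had 11.00 and 10.87 in HF-NP livers, against 10.20 and 9.69 in LF-NP livers. Its differences of 0.81 and 1.18 are 1.75-fold and 2.27-fold (SE 0.13, unadjusted p in limma = 0.000179, adjusted p = 0.84). Sdf2l1, a partner of the main chaperone, had 10.25 and 10.19 in HF-NP livers, against 9.45 and 9.04 in LF-NP livers. Derl3, part of the channel that exports misfolded protein for degradation and not a member of the list, had 7.6 and 8.6 in HF-NP livers, against 6.74 and 7.24 in LF-NP livers. In all 3 genes both HF-NP pools were above both LF-NP pools.

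Hspa5 encodes that main chaperone (BiP) and had 12.80 and 12.66 in HF-NP livers, against 12.52 and 12.15 in LF-NP livers. Hsp90b1, its partner GRP94, had 11.99 and 11.84 in HF-NP livers, against 11.54 and 11.26 in LF-NP livers. Dnajb9, a co-chaperone, had 10.80 and 11.18 in HF-NP livers, against 10.30 and 10.43 in LF-NP livers. The groups did not overlap for any of these 3 genes. Pdia4, a disulfide isomerase, was higher by 0.35 and 0.69, and Hyou1, an exchange factor of the chaperone, by 0.35 and 0.54. Pdia6 was higher by 0.27 and 0.40 and calreticulin (Calr) by 0.19 and 0.20. Members of the arm that answers to amino acid shortage or translational arrest differed among themselves. Atf3, a stress-induced transcription factor, had 5.82 and 5.63 in HF-NP livers, against 5.69 and 5.20 in LF-NP livers, with an unadjusted p in limma of 0.0411. Ddit3, the factor CHOP, had 7.10 and 7.20 in HF-NP livers, against 7.10 and 6.90 in LF-NP livers, and Trib3 differed by 0.00 and -0.01. Asns, the asparagine synthetase, had differences of -0.18 and -0.52, and Chac1, which degrades glutathione, had 6.52 and 7.03 in HF-NP livers, against 7.46 and 7.29 in LF-NP livers. Xbp1, the factor that drives many chaperones, had differences of -0.19 and 0.13 in transcript level. At high protein Creld2 had fat differences of -0.03 and 0.35, Hsp90b1 -0.08 and 0.03, and Hspa5 -0.04 and 0.12. The fat difference was smaller at high than at normal protein for 6 of the 25 list members at an unadjusted p under 0.05 and larger for 2, with no adjusted call. Over all genes these shares were 2.23% and 4.79%. Among the 6 were Creld2 (unadjusted p = 0.00338, adjusted p = 0.582 in limma) and Hsp90b1 (unadjusted p = 0.00254, adjusted p = 0.556 in limma).

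The element through which ATF6 and XBP1 act on chaperone genes, CCAAT and CCACG with 9 bases between them, was searched on both strands after the values of these genes had been seen. It was present in 0.137% of all genes with a window. Of the 24 list members with a window 6 held it (Hspa5, Hsp90b1, Creld2, Calr, Pdia6 and Dnajc3). Among the other genes listed or named, Derl3 and the lipogenic gene Acacb held it, and Acacb differed by 0.01 and -0.01. Since chaperone promoters were where this element was defined, its presence there is background and not a result of these arrays. Sdf2l1 and Dnajb9 were not among the genes found to hold it. Of those that held it, the stretches of the 4 with the clearest differences are shown. They run 5′ to 3′ on the strand of the gene, with the 2 boxes of each copy in capitals. Read on the other strand the boxes appear as CGTGG and ATTGG, as in Creld2 and Derl3, and Hsp90b1 holds 2 copies, 1 in each direction.
Creld2, chr15:88819480-88819578, plus strand: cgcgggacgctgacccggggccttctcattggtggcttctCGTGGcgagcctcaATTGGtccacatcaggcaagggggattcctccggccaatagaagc
Derl3, chr10:75893202-75893300, plus strand: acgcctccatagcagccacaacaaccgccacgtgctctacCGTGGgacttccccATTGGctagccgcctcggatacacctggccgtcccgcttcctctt
Hspa5, chr2:34771985-34772083, plus strand: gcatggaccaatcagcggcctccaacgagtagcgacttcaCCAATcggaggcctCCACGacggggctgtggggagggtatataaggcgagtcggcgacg
Hsp90b1, chr10:86705493-86705694, minus strand: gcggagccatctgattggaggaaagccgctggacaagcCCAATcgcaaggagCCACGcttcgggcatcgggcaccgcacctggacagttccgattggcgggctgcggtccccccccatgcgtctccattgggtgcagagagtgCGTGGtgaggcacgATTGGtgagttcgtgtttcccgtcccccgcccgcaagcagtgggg

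**Figure D3:**
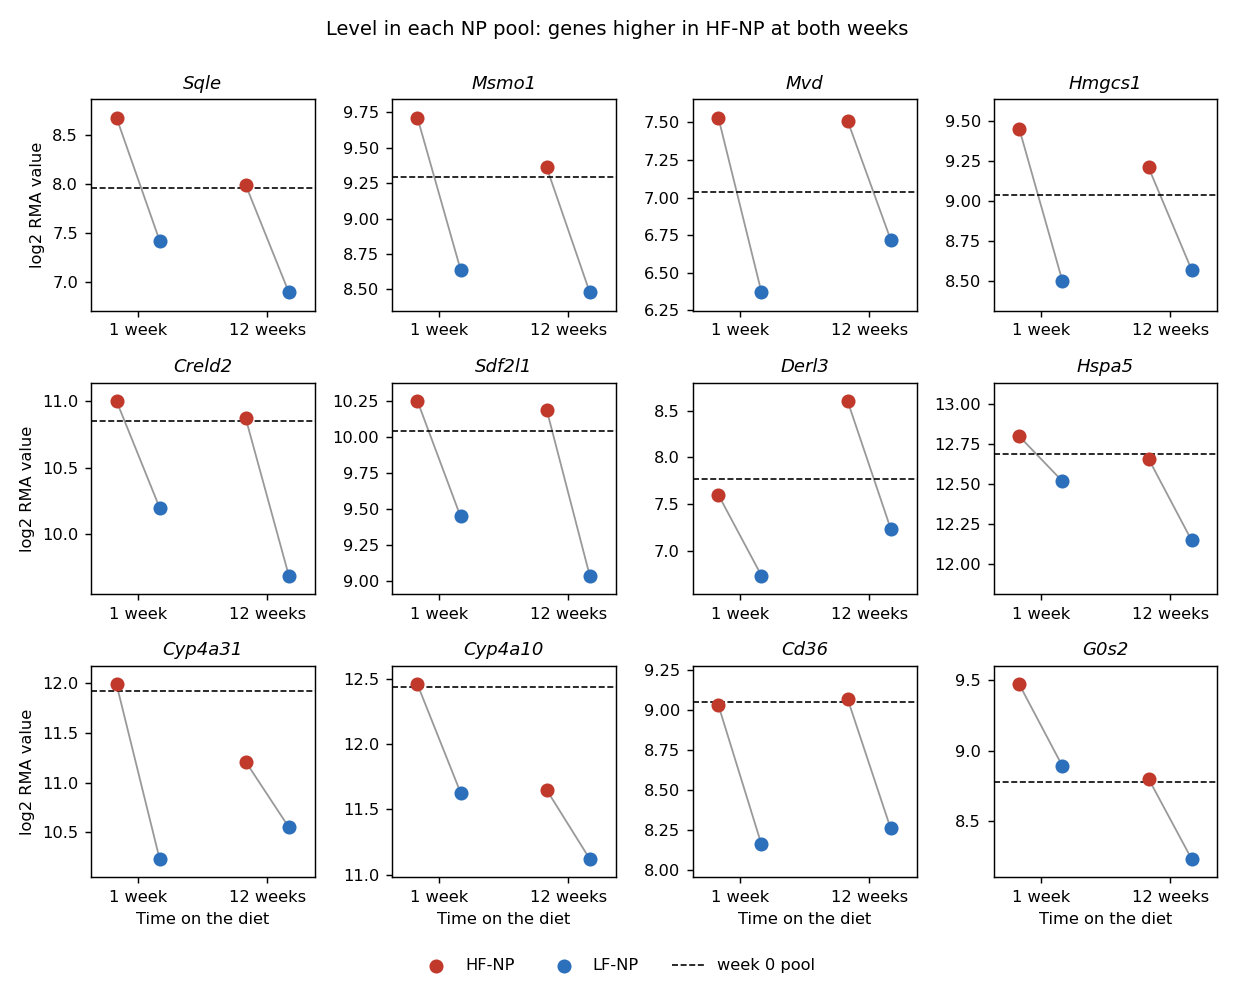
Level (log2 RMA value, vertical axis) of 12 genes in each NP pool, HF-NP in red and LF-NP in blue, after 1 and 12 weeks, with the week 0 pool as a dashed line, and 1 array for each point. In each panel the HF-NP pool is above the LF-NP pool of its week. For Cyp4a10 the HF-NP pool of 12 weeks (11.65) and the LF-NP pool of 1 week (11.63) lie close together.

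Targets of PPAR alpha were higher in HF-NP livers, mostly after 1 week. Of 26 genes measured from that list, 17 were higher at both weeks and 0 lower, and 6 were higher at an unadjusted p under 0.05, with no adjusted call. Their median difference was 0.41 after 1 week and 0.10 after 12 weeks. In the overlapping list of peroxisomal and microsomal fatty acid oxidation, 13 of 17 genes were higher at both weeks and 1 lower (Abcd2), and 8 were higher at an unadjusted p under 0.05. The medians of that list were 0.29 and 0.13. For 14 of the 26 and 10 of the 17 genes both HF-NP pools lay above both LF-NP pools, beside 8.97% of all genes. Over all genes 17.6% were higher and 25.3% lower at both weeks, and 1.6% were higher at an unadjusted p under 0.05 in limma.

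The CYP4A enzymes hydroxylate fatty acids at their far end in microsomes. Cyp4a31 had 11.99 and 11.21 in HF-NP livers, against 10.23 and 10.55 in LF-NP livers, and its difference of 1.76 after 1 week, 3.39-fold, was the largest at that week among the 25 genes (mean 1.21, SE 0.24, adjusted p in limma = 0.972). Cyp4a10 had 12.46 and 11.65 in HF-NP livers, against 11.63 and 11.12 in LF-NP livers. Cyp4a14 had 13.22 and 12.33 in HF-NP livers, against 11.88 and 12.13 in LF-NP livers. These 3 genes are close copies of each other, so their probe sets may share signal. In peroxisomes, Ehhadh, the bifunctional enzyme of beta oxidation, had 12.29 and 11.29 in HF-NP livers, against 11.10 and 10.91 in LF-NP livers. Pex11a, which divides peroxisomes, had 11.69 and 11.32 in HF-NP livers, against 11.08 and 11.02 in LF-NP livers. Acaa1b, a thiolase, was higher by 0.54 and 0.19. All 6 genes thus had a larger difference after 1 week than after 12 weeks.

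Several targets differed mainly after 1 week. Pdk4, the kinase that shuts pyruvate out of oxidation, had 7.93 and 7.40 in HF-NP livers, against 6.75 and 7.32 in LF-NP livers. Acot1, a cytosolic thioesterase, was higher by 1.19 and 0.09, and its paralog Acot3 by 1.1 and 0.56. Slc27a1, a fatty acid transporter, was higher by 0.85 and 0.02, and Retsat, a retinol saturase, had 0.51 and -0.01. Angptl4, an inhibitor of lipoprotein lipase, had 0.52 and -0.02. The carnitine transferase Cpt1a, the entry to mitochondrial oxidation, had differences of -0.19 and 0.01, and the receptor itself (Ppara) had 0.16 and 0.00. Genes of mitochondrial oxidation and ketogenesis had a median difference of 0.16 and 0.01, with 13 of 22 higher at both weeks and 1 lower, and 1 of them, the electron transfer gene Etfdh, had an unadjusted p under 0.05 (0.24 and 0.19). Over all genes 17.6% were higher and 25.3% lower at both weeks.

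At high protein these targets were not higher on fat. Over the 26 genes the median of HF-HP minus LF-HP was -0.07 after 1 week and 0.08 after 12 weeks, with 5 higher and 7 lower at both weeks. Over all genes 25.8% were higher and 17.3% lower at both weeks at high protein. Cyp4a31 had -0.28 and -0.09 at high protein, and Cyp4a10 -0.08 and 0.23. In level, Cyp4a31 had 12.38 and 11.8 in LF-HP livers and 12.1 and 11.72 in HF-HP livers. Cyp4a10 had 12.65 and 11.87 in LF-HP livers and 12.56 and 12.1 in HF-HP livers. For both genes the HP pools thus lay above the HF-NP and LF-NP pools of the same week. Pex11a differed, with 11.36 and 10.98 in LF-HP livers and 11.23 and 10.92 in HF-HP livers, below its HF-NP pools. Of the 26 genes, 5 had a smaller fat difference at high than at normal protein at an unadjusted p under 0.05 and 0 a larger one, and no adjusted p passed. In the list of peroxisomal and microsomal oxidation these counts were 7 and 1 of 17, and over all genes the shares were 2.23% and 4.79%.

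Fatty acid uptake and storage held single genes of both directions. Cd36, a fatty acid translocase, had 9.03 and 9.07 in HF-NP livers, against 8.16 and 8.26 in LF-NP livers, which is 1.82-fold and 1.75-fold (SE 0.15 on the log2 scale, adjusted p in limma = 0.972). Fabp5, a fatty acid-binding protein, had 7.68 and 7.25 in HF-NP livers, against 8.62 and 8.16 in LF-NP livers, and a further probe set of it gave -0.97 and -0.93. Both genes kept their groups apart, in opposite directions. Fabp1, the main binding protein of hepatocytes, was higher by 0.12 and 0.12. Among 32 genes of triglyceride synthesis and lipid droplets the medians were 0.03 and -0.07. At both weeks 6 were higher (18.8%) and 8 lower (25%), near the shares over all genes of 17.6% and 25.3%. G0s2, an inhibitor of adipose triglyceride lipase, had 9.47 and 8.80 in HF-NP livers, against 8.89 and 8.23 in LF-NP livers, so the groups overlapped across weeks although each week had the same direction. Mogat1, a monoacylglycerol acyltransferase, had 5.00 and 4.87 in HF-NP livers, against 4.18 and 4.29 in LF-NP livers, a level below the median of all genes. Plin4, a droplet coat protein, was higher by 0.55 and 0.30. Lpin1, a phosphatidate phosphatase, had 11.16 and 10.26 in HF-NP livers, against 11.40 and 10.88 in LF-NP livers.

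Genes of fatty acid synthesis from sugar were lower in HF-NP livers. In the list of de novo lipogenesis, HF-NP lay below LF-NP at both weeks for 14 of 19 members and above it for 1, Mid1ip1, and both HF-NP pools lay below both LF-NP pools for 10. Over all genes 25.3% were below and 17.6% above at both weeks, and 14.2% had both HF-NP pools below. The medians were -0.18 and -0.12, and 3 genes were lower at an unadjusted p under 0.05 (Srebf1, Acaca and Elovl6), beside 2.25% of all genes, with no adjusted call. Srebf1, which encodes SREBP-1, had 10.44 and 10.60 in HF-NP livers, against 10.90 and 11.06 in LF-NP livers. Acaca, the carboxylase that forms malonyl-CoA, had 10.00 and 10.13 in HF-NP livers, against 10.26 and 10.34 in LF-NP livers. Elovl6, which extends palmitate, had 11.48 and 11.68 in HF-NP livers, against 11.89 and 11.85 in LF-NP livers. In these 3 genes the groups did not overlap. Pklr, the pyruvate kinase of liver and a target of ChREBP, had 11.35 and 11.73 in HF-NP livers, against 11.96 and 11.91 in LF-NP livers. The synthase Fasn differed by -0.03 and -0.13, and the desaturase Scd1 by -0.09 and -0.04, so these enzymes of the pathway showed little difference. Elovl2, which extends polyunsaturated fatty acids, had differences of -0.34 and -0.31.

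Genes of sugar entry, glycolysis and glycogen were lower as well, by small amounts. Of 22 genes 14 were lower at both weeks and 1 higher, with medians of -0.12 and -0.13, and 10 had both HF-NP pools below both LF-NP pools. Over all genes these shares were 25.3%, 17.6% and 14.2%. Khk, which phosphorylates fructose, had 10.85 and 11.03 in HF-NP livers, against 11.17 and 11.24 in LF-NP livers. The transporter Slc2a2 differed by -0.21 and -0.12 and transketolase (Tkt) by -0.17 and -0.17, while transaldolase (Taldo1) was the member higher at both weeks, by 0.17 and 0.16. The gluconeogenesis list had medians of 0.00 and -0.19. Within it Got1, a cytosolic transaminase, had 11.96 and 11.08 in HF-NP livers, against 12.11 and 11.70 in LF-NP livers.

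**Figure D4:**
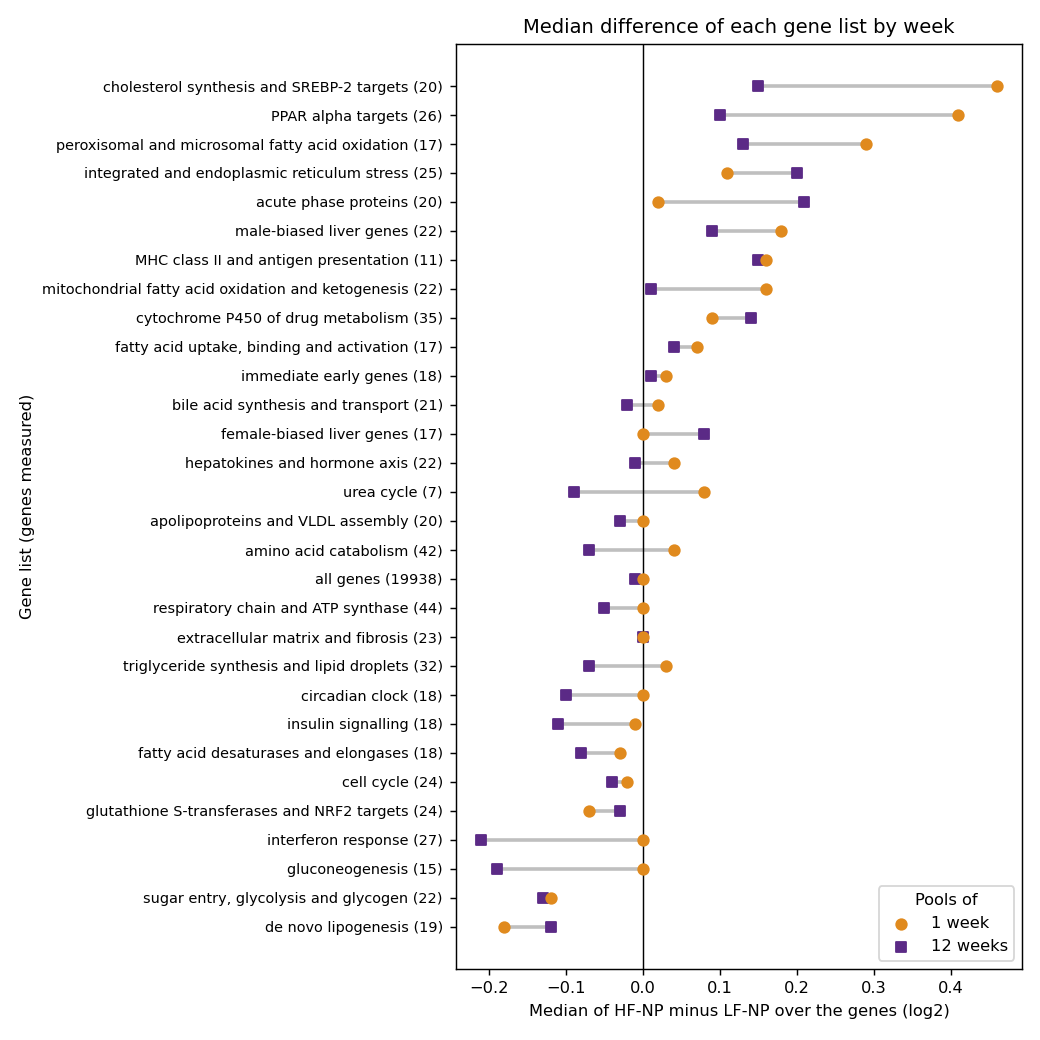
Median of HF-NP minus LF-NP (log2, horizontal axis) over the measured genes of each of 29 pathway lists and over all 19938 genes, at 1 week (circles) and 12 weeks (squares), with the number of genes in brackets. Cholesterol synthesis (0.46 and 0.15) and PPAR alpha targets (0.41 and 0.10) lie farthest to the right after 1 week, acute phase proteins (0.21) and endoplasmic reticulum stress (0.20) after 12 weeks, and de novo lipogenesis (-0.18 and -0.12) is at the foot of the plot.

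Among the 18 genes lower by 0.5 or more at both weeks, Myc, a transcription factor of cell growth, had 6.42 and 6.53 in HF-NP livers, against 8.01 and 8.12 in LF-NP livers. That is a 2.99-fold lower signal after 1 week and a 3.01-fold lower signal after 12 weeks, with a mean difference of -1.59 (SE 0.54, unadjusted p in limma = 0.0234). The HP pools, which enter the SE of the same fit, had differences of 1.56 and -1.17. Foxq1, a forkhead factor, had 7.09 and 7.48 in HF-NP livers, against 8.49 and 8.63 in LF-NP livers. Phlda1 had 8.33 and 8.81 in HF-NP livers, against 9.16 and 9.63 in LF-NP livers. Both of these also had a positive difference after 1 week and a negative one after 12 weeks at high protein (0.87 and -1.44 for Foxq1, 0.86 and -0.88 for Phlda1). The 3 genes are thus alike in the NP pools and in the HP pools.

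Cish and Socs2, which growth hormone induces through STAT5, were among those lower. Cish, a feedback inhibitor of that pathway, had 6.42 and 6.62 in HF-NP livers, against 8.08 and 7.65 in LF-NP livers. Socs2, a further such inhibitor, had 8.46 and 7.23 in HF-NP livers, against 9.30 and 8.49 in LF-NP livers, and its dimmer probe set gave -0.60 and -0.30. The SE by limma was 0.38 for Cish and 0.2 for Socs2. At high protein the differences were 0.71 and -1.11 for Cish and 0.66 and -0.08 for Socs2. Cish was thus positive after 1 week and negative after 12 weeks there, as for Myc, Foxq1 and Phlda1, while Socs2 differed little after 12 weeks. Igf1, the main secreted product of the pathway, had 11.78 and 11.75 in HF-NP livers, against 11.80 and 11.73 in LF-NP livers, and the receptor Ghr differed by 0.05 and 0.10. So 2 feedback inhibitors stood apart between the diets at normal protein while Igf1 and Ghr differed by at most 0.10. Lepr, the leptin receptor, had 7.02 and 5.77 in HF-NP livers, against 7.61 and 7.72 in LF-NP livers, a 1.5-fold and a 3.88-fold lower signal. Igfbp1, a secreted binding protein of IGF1 that insulin represses, had 8.51 and 7.6 in HF-NP livers, against 9.04 and 8.58 in LF-NP livers. Among 22 hepatokine and hormone genes 3 were lower by 0.5 or more at both weeks (Socs2, Lepr and Igfbp1) and 0 higher, beside 0.0903% and 0.125% of all genes. Hepcidin (Hamp), which limits iron export, was higher by 0.38 and 0.53.

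The remaining genes of this group belong to other pathways. Plk3, a stress kinase, had 8.79 and 8.17 in HF-NP livers, against 9.72 and 8.98 in LF-NP livers, and at high protein it had the opposite sign (1.09 and 0.73). Hhex, a homeobox factor of liver development, had 8.72 and 9.00 in HF-NP livers, against 9.39 and 9.66 in LF-NP livers, with the smallest SE of this group (0.09, unadjusted p in limma = 0.000211, adjusted p = 0.84). Cyp26a1, which degrades retinoic acid, had 5.96 and 5.70 in HF-NP livers, against 7.19 and 6.4 in LF-NP livers. In all 3 genes both HF-NP pools lay below both LF-NP pools. Gabbr2, a GABA receptor subunit, was lower by 0.62 and 0.65 on the log2 scale, and Zyg11a, a substrate adaptor of a ubiquitin ligase, by 0.57 and 1.01. Peg10, an imprinted gene of viral origin, was lower by 0.54 and 1.12, and Wsb1, part of a ubiquitin ligase, by 0.70 and 0.56. Svs3b, Olfr121 and Gbp11 complete the 18, with differences between -0.54 and -1.31, and Svs3b and Olfr121 lay below the median level of all genes. Among the 25 genes higher in HF-NP, those in none of the pathways described were Gm10785, Apol7c, Rnase2a, Slc8a1, Tmem41b, Olfr1036, Rarres1 and Snord14e, with differences between 0.51 and 1.28. Of these, Apol7c, Rnase2a, Slc8a1 and Olfr1036 had a mean level below the median of all genes.

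**Figure D5:**
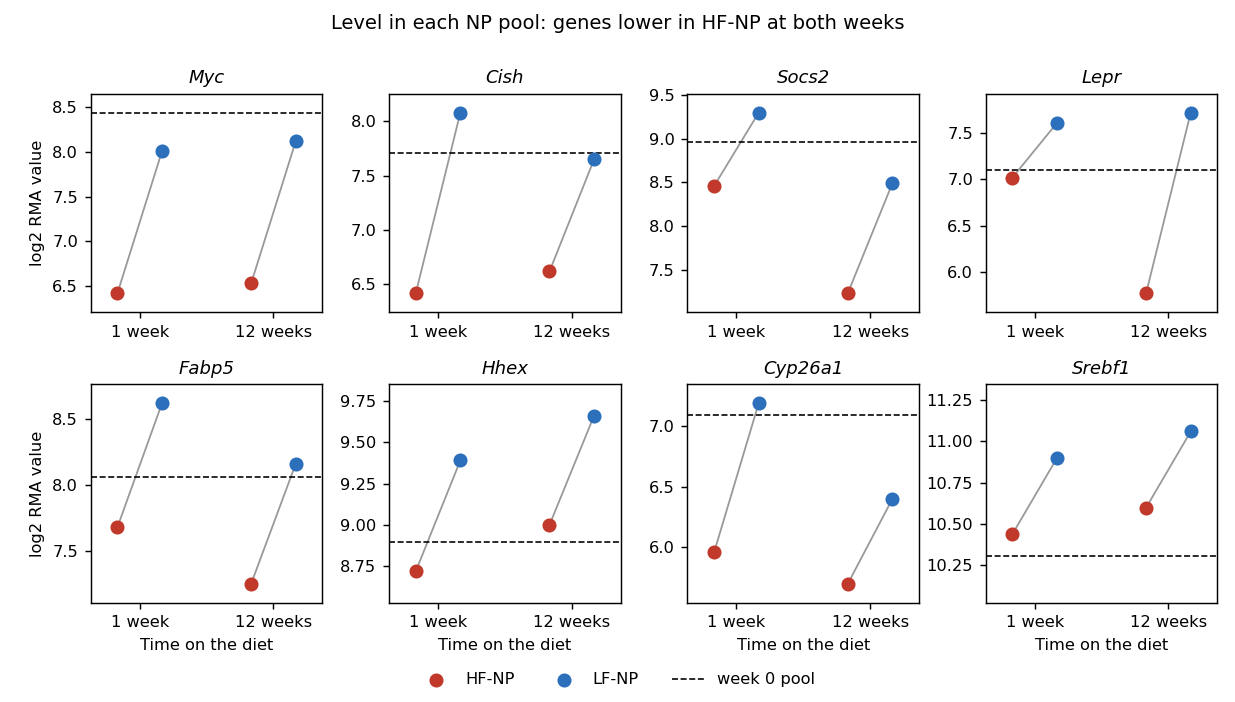
Level (log2 RMA value, vertical axis) of 8 genes lower in HF-NP at both weeks, HF-NP in red and LF-NP in blue, after 1 and 12 weeks, with the week 0 pool as a dashed line, and 1 array for each point. The HF-NP pool of 12 weeks is the lowest for Lepr (5.77) and Socs2 (7.23), and for Srebf1 all 4 pools lie above the week 0 pool (10.31).

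Cytochromes P450 of drug metabolism were slightly higher in HF-NP livers. Of 35 genes 19 were higher at both weeks and 2 lower, 6 were higher at an unadjusted p under 0.05 and 0 lower, and the medians were 0.09 and 0.14. Over all genes 17.6% were higher and 25.3% lower at both weeks, and 1.6% and 2.25% at that unadjusted p. Cyp2b10, the classical target of the receptor CAR, had 6.43 and 5.19 in HF-NP livers, against 5.10 and 4.50 in LF-NP livers, with an SE of 0.55 for its mean difference of 1.01. Its mean level over these pools was below the median of all genes. Cyp1a2, which oxidises caffeine, had 12.10 and 12.16 in HF-NP livers, against 11.79 and 11.81 in LF-NP livers. The receptor CAR itself (Nr1i3) was higher by 0.50 and 0.26. Cyp2c54 and its close paralog Cyp2c50, which may share signal, were higher by 0.35 and 0.47 and by 0.31 and 0.47. At high protein the list had the opposite sign, with medians of -0.23 and -0.10 and 25 of 35 genes lower at both weeks, beside 17.3% of all genes. The fat difference was smaller at high than at normal protein for 9 of the 35 at an unadjusted p under 0.05, with 0 larger and no adjusted call. Over all genes 2.23% were smaller and 4.79% larger. Male-biased liver genes had medians of 0.18 and 0.09, with Cyp4a12a higher by 0.29 and 0.23 and the transporter Slco1a1 by 0.24 and 0.23. Female-biased genes had medians of 0.00 and 0.08.

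Apolipoproteins and VLDL assembly had medians of 0.00 and -0.03 with 4 of 20 genes lower at an unadjusted p under 0.05, beside 2.25% of all genes. Apoa4, an apolipoprotein of fat transport, had 11.65 and 12.31 in HF-NP livers, against 12.70 and 12.51 in LF-NP livers, and at high protein it was higher on fat by 1.23 and 0.56. Its difference between the protein levels had an unadjusted p of 0.00356 and an adjusted p of 0.588 in limma. Apoa5, a regulator of plasma triglyceride, was lower by 0.23 and 0.22. In bile acid synthesis Cyp39a1, an oxysterol hydroxylase, had 8.02 and 7.41 in HF-NP livers, against 8.48 and 8.70 in LF-NP livers, over list medians of 0.02 and -0.02. Glutathione S-transferases and NRF2 targets had medians of -0.07 and -0.03 with 12 of 24 lower at both weeks, beside 25.3% of all genes.

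Of 20 acute phase genes, 9 were higher in HF-NP at both weeks and 2 lower, 1 was higher at an unadjusted p under 0.05 (Hamp) with no adjusted call, and the medians were 0.02 and 0.21. Over all genes 17.6% were higher and 25.3% lower at both weeks, and 1.6% were higher at that unadjusted p. Saa4, a serum amyloid made constantly by the liver, had 12.44 and 12.59 in HF-NP livers, against 12.11 and 12.30 in LF-NP livers. The inducible members with the largest differences after 12 weeks had the opposite sign after 1 week. Saa2, a serum amyloid, had 7.44 and 8.71 in HF-NP livers, against 8.35 and 6.60 in LF-NP livers. Lcn2, which binds bacterial siderophores, had 7.57 and 10.10 in HF-NP livers, against 8.11 and 7.97 in LF-NP livers. In both genes HF-NP was below LF-NP after 1 week and above it after 12 weeks, by -0.91 and 2.11 for Saa2 and by -0.54 and 2.13 for Lcn2. The week 0 pool, also on the low-fat diet, had the highest Saa2 value of the 5 pools of normal protein, 10.81, so the low-fat pools themselves lay between 6.6 and 10.81. Saa1, a close paralog of Saa2 named after its values were seen, had -0.64 and 2.14, and Orm2 and Orm3, named likewise, had -0.31 and 1.05 and -0.44 and 1.42. The metallothioneins Mt1 and Mt2, which bind zinc, also had opposite signs at the 2 weeks, with -0.55 and 0.36 and with -1.22 and 0.54. In all, 39 genes above the median level had opposite differences of at least 0.3 at the 2 weeks.

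Immune lists differed in direction. For the counts that follow, HF-NP was above LF-NP at both weeks for 17.6% of all genes and below it for 25.3%. The interferon list had medians of 0.00 and -0.21, with 12 of 27 genes lower and 4 higher at both weeks, and MHC class II and antigen presentation had 0.16 and 0.15, with 6 of 11 genes higher and 3 lower at both weeks and none at an unadjusted p under 0.05. H2-Ab1, a class II chain, had 8.45 and 8.63 in HF-NP livers, against 8.10 and 8.21 in LF-NP livers. Macrophage markers averaged 7.69 and 8.06 in HF-NP livers, against 7.69 and 8.04 in LF-NP livers, with 4 of 15 higher and 5 lower at both weeks. At high protein the same 15 markers had medians of 0.78 and 0.47, with 14 higher on fat at both weeks, beside 25.8% of all genes. Whether they relate to the counts over all genes at high protein was not tested. Fewer cells of a type and less RNA in each cell cannot be told apart in whole liver. Matrix genes had medians of 0.00 and 0.00. Of 24 cell cycle genes 9 were lower and 4 higher at both weeks, and Rrm2, a ribonucleotide reductase subunit, had 7.06 and 6.83 in HF-NP livers, against 7.41 and 7.37 in LF-NP livers. Markers of stellate, endothelial, bile duct, T, NK and B cells, neutrophils, adipocytes, red cells and pancreas had list medians between -0.15 and 0.24 in either week.

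The medians of protein and energy metabolism were close to those of all genes. Amino acid catabolism had medians of 0.04 and -0.07 over 42 genes, the urea cycle 0.08 and -0.09 over 7, and the respiratory chain and ATP synthase 0.00 and -0.05 over 44. At both weeks 10 genes of the first list were higher and 15 lower (35.7%), of the second 1 and 2, and of the third 8 and 19 (43.2%). Over all genes 17.6% were higher and 25.3% lower at both weeks. Within these lists Otc, the urea cycle transferase, had 10.97 and 11.12 in HF-NP livers, against 10.57 and 10.83 in LF-NP livers. Uqcrb, a subunit of complex III, had 12.03 and 12.09 in HF-NP livers, against 11.76 and 11.79 in LF-NP livers. Insulin signalling had medians of -0.01 and -0.11 with 8 of 18 genes lower and 0 higher at both weeks, and the circadian clock 0.00 and -0.10, with Tef lower by 0.33 and 0.15.

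The fat difference was then set against the same difference at high protein, which rests on other pools. Between HF-HP and LF-HP, 986 genes (4.95%) were higher and 490 (2.46%) lower at an unadjusted p under 0.05, none at an adjusted p under 0.05 in limma (smallest 0.0757), and 72 (0.361%) were higher and 10 (0.0502%) lower by 0.5 or more at both weeks. HF-HP was above LF-HP at both weeks for 25.8% of all genes and below it for 17.3%. Of the 25 genes higher by 0.5 or more in HF-NP, 9 were higher and 5 lower at both weeks at high protein, and 1, Sqle, reached 0.5 there. Of the 18 lower in HF-NP, 2 were lower and 4 higher at both weeks at high protein. The median over the 25 genes was 0.80 and 0.68 at normal and -0.04 and 0.10 at high protein, where the values at normal protein chose the genes. In the test of the fat difference at high minus that at normal protein, 955 genes (4.79%) were above 0 and 445 (2.23%) below it at an unadjusted p under 0.05, and 0 passed an adjusted p under 0.05 in limma. The smallest adjusted p was 0.0538, for Gm10785, a predicted gene, which had 7.39 and 8.13 in HF-NP livers, against 6.72 and 7.25 in LF-NP livers, and differences of -1.15 and -1.23 at high protein.

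The reference pool at week 0 had received the low-fat diet in the run-in and gives the level before the diets parted. It lay nearer to the mean of the HF-NP pools than to that of the LF-NP pools for 51.6% of all genes, for 21 of the 25 genes higher in HF-NP (84.0%) and for 5 of the 18 genes lower (27.8%). Over the PPAR alpha targets the median difference from week 0 was 0.04 and -0.20 in the HF-NP pools and -0.40 and -0.44 in the LF-NP pools. Cyp4a31 for instance had 11.99 and 11.21 in HF-NP livers and 10.23 and 10.55 in LF-NP livers, against 11.92 at week 0. At week 0 Cd36 had 9.05 and Creld2 10.85, closer to their HF-NP than to their LF-NP values. The cholesterol list was at 0.29 and 0.00 from week 0 in the HF-NP pools and at -0.23 and -0.23 in the LF-NP pools. Week 0 is 1 pool, and diet length and age cannot be told apart in it.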

How the data were processed

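Liver RNA of 9 pools was measured on 1 array each. Per the labels, the authors processed the scans with RMA (background correction, quantile normalization and a summary of each probe set), and the deposited values are on a log2 scale. The versions of these tools are not given in the sources used here. Quantile normalization gives all arrays nearly the same distribution, so a shift shared by most genes would not be seen. The study's methods describe probes regrouped by Entrez gene, whereas the deposited rows carry the array's own probe set identifiers, so the values are summarised differently from those methods. Of 35556 probe sets, 21789 were annotated to 1 gene, 1621 to several and 12146 to none, and only those with 1 gene were used. The brightest probe set stood for a gene (999 genes had several), which left 19938 genes.

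Differences were taken within each week, which the labels give, so the week pairs the pools. limma 3.58.1 in R 4.3.3 (lmFit and eBayes, Benjamini-Hochberg over 19938 genes) was fitted to the 8 diet pools with terms for protein, for fat at each protein level and for week, leaving 3 residual degrees of freedom. On simulated data with known changes and independent noise, the fit was checked for the size of its median estimates. That check does not describe its power to call genes. Each pool came from a diet group of its own, with mice kept in pairs. With 1 pool for each diet and week, the residual spread is how far diet differences vary between the weeks, at both protein levels. The p-values rest on that spread and not on the spread between mice or between like pools. A diet difference that changes with time is counted as spread. A p that misses the threshold does not show that values did not differ. The weeks carry 1 pool for each diet and cannot be tested against each other.

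The 29 pathway and 10 marker lists held 804 entries, of which 82 have no value here. The pools and lists were chosen with earlier results of these data known. Genes were named by rule: up to 12 in each direction above the median level, ranked by the smaller of the 2 week differences, up to 4 of each list by the same rank, and up to 6 in each direction that were opposed between the weeks by 0.3 or more. Further list members named to describe a list were chosen after their values were seen. Alternatives changed the samples, the covariates, the level filter, the prior variance, array weights, centring, the probe set rule, the thresholds and the pools left out. Array weights for single genes and lists, and centring and the probe set rule for the comparison of protein levels, were added after seeing the data. Promoter windows came from RefSeq (GRCm38.p6) and were searched with Python 3.11.15.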

Additional observations from a re-analysis of the deposited data

Results flagged for a closer look

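Several results were picked out because the fat difference was not the same at both protein levels. The fat difference at high protein minus that at normal protein was -1.97 for Gm10785 (adjusted p in limma = 0.0538), a predicted gene, and -1.39 for Cyp4a31 (adjusted p in limma = 0.64), a fatty acid hydroxylase. It was 1.78 for the stress kinase Plk3, 1.03 for the GABA receptor subunit Gabbr2 and 1.46 for the leptin receptor Lepr, with adjusted p in limma of 0.541, 0.541 and 0.687. None of these 5 passed the adjusted threshold. They were taken from the genes with the largest differences at normal protein, so the values at normal protein chose them.

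Other genes were picked out because HF-NP lay on opposite sides of LF-NP at the 2 weeks. The difference at 12 weeks minus that at 1 week was not tested, since each diet has 1 pool at each week. It was -1.14 for Zfand4, -1.08 for Phospho1, -1.04 for Ddit4, an inhibitor of mTORC1, -1.23 for the potassium channel gene Kcnk5, -1.21 for Spon2 and -0.96 for the transcription factor gene Atoh8. All 6 were higher in HF-NP after 1 week and lower after 12 weeks. In the other direction it was 3.02 for the serum amyloid Saa2, 2.68 for Lcn2, 1.76 for Mt2 and 0.91 for Mt1, the metallothioneins, 1.12 for Rangrf and 0.85 for C2cd4a.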

How the results depend on the processing

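No gene passed the adjusted test between HF-NP and LF-NP under any alternative except 1, leaving out a pool. The counts over the pools left out were 0 to 1 genes for this comparison and 0 to 1 for the fat difference between protein levels, and without LF-NP replicate 1 the gene in both was Dmbt1 (-5.09, adjusted p in limma = 0.013, and 5.22, adjusted p = 0.0358). Leaving out an NP pool gives no value for the counts over both weeks, and it leaves that diet with 1 pool, taken to vary like the others. With a replicate block of week in the 4 NP pools alone, 0 genes passed, and 355 were higher and 434 lower at an unadjusted p under 0.05 in limma. With a replicate block by protein level and week these counts were 0, 277 and 407, and the block changed no adjusted call.

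Counts at an unadjusted p under 0.05 became 292 lower with the week 0 pool added, and 174 higher and 290 lower over genes above the median level, where fewer genes were tested. Genes passing the adjusted test between protein levels numbered 2 above the median level, 2 with arrays centred on their medians (an alternative chosen after seeing the data) and 1 with an intensity trend. Gm10785 was among them in all 3 settings (adjusted p in limma 0.00987, 0.0125 and 0.0439), and the second gene was Tuba8 in both of the others. Repeated differences numbered 81 higher and 106 lower at a limit of 0.3, 1 and 3 at a limit of 1, and 51 lower with week 0 in place of the LF-NP pools.

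Of the named genes' values 2108 kept their sign and 20 did not. An additive fit over both protein levels turned Gm10785 (-0.21), Plk3 (0.02), Elovl1 (0.05), Fads1 (0.03), Apoa4 (0.14), Asns (0.86), Cox7b (-0.01), Gstm4 (0.01), Gsta4 (0.12), Cyp2b9 (-0.12), Trim24 (-0.04), Slco1a1 (0), Cp (-0.01), Tgfb1 (0.11), Top2a (0.05) and Ccne1 (0.04), since it averages the HP pools in. Adding week 0 turned Tgfb1 (0.02). Over the pools left out, Cyp2b9 lay between -0.14 and 1.63 and Trim24 between -0.07 and 0.25. Of the list medians 450 moved by less than the SD of the list's median between the weeks and 72 by more. With 1 array for each diet and week, precision is limited by their number, and 217 genes had identical values in HF-NP and LF-NP at both weeks.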

Other observations

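Dmbt1, a secreted scavenger receptor protein of epithelia named after its values were seen, was high in 1 pool alone. It had 3.55 and 3.73 in the HF-NP pools of 1 and 12 weeks, against 3.73 and 8.93 in the LF-NP pools, and 3.56 at week 0. The difference of -5.19 after 12 weeks therefore rests on the LF-NP pool of that week. Tuba8, an alpha tubulin also named after its values were seen, had 6.07 and 5.88 in HF-NP livers, against 6.4 and 6.61 in LF-NP livers, while its difference at high protein was 1.54 at each week.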
